A study of Homo sapiens with 2 samples.

Results

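The 10 genes described here build and run the start of DNA replication: the 6 subunits of the MCM2-7 ring, the loader CDC6, the sliding clamp PCNA, the ribonucleotide reductase subunit RRM2 and the cyclin CCNE2. They were taken by their identifiers from a list of 10, and all 10 were found among the 18394 genes of the table. The level of each was compared between MDA-MB-231(SA), a variant of the human breast cancer line MDA-MB-231 known for forming bone metastases in mice, and the parental MDA-MB-231 line, which lacks the oestrogen receptor. Each line gave 1 culture and 1 Affymetrix array of 3 µg total RNA, so differences are given without a replicate check or p-value. Both lines were grown in flasks in DMEM with 10% inactivated serum and 1000 mg/L glucose. The labels name no drug, genetic change or animal passage for either culture, and they do not state cell density or growth phase at harvest.

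Before S phase, MCM2 to MCM7 are loaded around DNA as a ring by the origin recognition complex, CDC6 and CDT1, a step called licensing. Cyclin-dependent kinases, among them CDK2 with cyclin E, then switch the loaded rings on as helicases, while PCNA holds the DNA polymerases on the template and ribonucleotide reductase supplies deoxynucleotides. Many of these genes are transcribed in late G1 through E2F factors, and their proteins are widely used as markers of dividing cells.

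None of the 10 genes differed by as much as 2-fold between SA and parental cells. The largest upward differences were those of MCM2 (1.515-fold higher in the SA variant) and MCM6 (1.468-fold higher), and the largest downward ones those of CCNE2 (1.369-fold lower) and MCM7 (1.279-fold lower). Of the 10, 7 had a higher value in the SA variant and 3 a lower one, and the 6 ring subunits lay on both sides of 0. All values are RMA levels on the log2 scale, and a difference is SA variant minus parental, so that 1 stands for 2-fold. Levels of different genes rest on different probes and were not set against each other. In bulk RNA, a change in the share of cells in S phase and a change in RNA per cell cannot be told apart.

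All 10 genes gave signal well inside the measured range. A level floor was placed at 5.62, the median over both arrays together, and all 10 genes lay above it on both. Against a stricter floor at 7.63, the 75th percentile of all values, 9 of the 10 lay above it on both arrays and MCM6 on the SA array alone. The comparison set was the 9725 genes that reached 5.62 on at least 1 array. It thus also holds genes that reached the floor on 1 array alone, unlike the 10. The spread, median size and ranks over this set were not recomputed for genes at the floor on both arrays.

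Promoter sequence is shown first for the 3 ring genes between which the differences were widest, MCM2 and MCM6 on the upper side and MCM7 on the lower. The windows come from RefSeq on GRCh38.p14 and run from position -160 to position 20, where position 1 is the first base of the annotated transcript and there is no position 0. They are written 5′ to 3′ on the strand of the gene, with matches to the E2F motifs searched in capitals. The MCM2 window lies at chr3:127598251-127598430 on the plus strand, the MCM6 window at chr2:135876424-135876603 on the minus strand, and the MCM7 window at chr7:100101378-100101557 on the minus strand, the first of 3 starts listed for that gene.
MCM2: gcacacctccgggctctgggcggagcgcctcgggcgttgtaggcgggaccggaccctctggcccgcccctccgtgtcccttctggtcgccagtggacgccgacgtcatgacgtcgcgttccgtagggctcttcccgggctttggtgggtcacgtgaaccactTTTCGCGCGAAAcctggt
MCM6: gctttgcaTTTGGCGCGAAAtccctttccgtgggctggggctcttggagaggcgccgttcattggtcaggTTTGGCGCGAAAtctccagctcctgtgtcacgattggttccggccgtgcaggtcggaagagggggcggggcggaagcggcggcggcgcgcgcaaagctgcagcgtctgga
MCM7: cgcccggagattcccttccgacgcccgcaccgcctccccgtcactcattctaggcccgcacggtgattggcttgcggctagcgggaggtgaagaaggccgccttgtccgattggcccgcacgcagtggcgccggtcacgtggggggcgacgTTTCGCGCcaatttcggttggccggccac

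The motifs searched were TTTCCCGC, TTTGGCGC, TTTGCCGC and TTTCGCGC for E2F and CCAAT for the factor NF-Y, on both strands, over the 250 bases before and the 50 bases after each start. The promoter table held 11 windows for 7 of the 10 genes (MCM2, MCM3, MCM6, MCM7, CDC6, PCNA and RRM2). MCM4, MCM5 and CCNE2 had no entry. MCM2 carried TTTCGCGC on both strands in one overlapping run from position 3 to 14. MCM7, with a difference of opposite sign, carried the same 8 letters from -9 to -2, the last of which is also the first base of a CCAAT. Upstream of the stretch printed, its first window also held TTTCCCGC on the opposite strand from -187 to -180. MCM6 held 2 runs, each with TTTGGCGC overlapping TTTCGCGC on the other strand, starting at -152 and -90.

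The other genes with windows lay between these in their differences. MCM3 held TTTCCCGC from -174 and TTTCGCGC from -4, CDC6 held TTTGGCGC from 8 to 15, and PCNA held TTTCCCGC on the opposite strand from -59 to -52. RRM2 had none of the 4 E2F motifs in its 2 windows. At least 1 E2F motif was thus in 6 of the 11 windows, 1 for each of 6 genes, against 3.31% of the 35116 windows in the table and 4.1% of the 22199 windows of protein-coding genes. CCAAT was in 10 of the 11 windows, all but that of MCM2, against 34.6% of all windows. Some of the 11 are further starts of the same gene, and by gene CCAAT was in 6 of the 7. Because many of these genes are already described as transcribed through E2F, the E2F contrast is no independent finding. A match is a string of letters and does not show that a factor binds there. Whether the motifs bear on the differences between the lines was not tested.

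MCM2 (ENSG00000073111_at) encodes a ring subunit whose long N-terminal tail also binds histones. Its level was 10.4 in the SA variant and 9.8 in the parental line, a difference of 0.6. This was the widest upward difference of the 10, and 15.3% of the genes compared had a higher one. MCM6 (ENSG00000076003_at), which stands next to MCM2 in the ring, had 7.86 in the SA variant and 7.3 in the parental line. Its difference of 0.55 was exceeded by 17.0% of the genes compared.

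MCM5 (ENSG00000100297_at) forms with MCM2 the gate through which DNA enters the ring. It was at 8.71 in the SA variant and at 8.42 in the parental line, a difference of 0.29, or 1.221-fold. That value lies inside the central part of the distribution, whose quartiles were -0.29 and 0.39. MCM4 (ENSG00000104738_at), a subunit of the helicase core with MCM6 and MCM7 and a target of the kinase DDK, had 8.18 in the SA variant and 8.09 in the parental line. MCM3 (ENSG00000112118_at), the subunit through which the ring is first drawn to the loader, had 10.65 in the SA variant and 10.7 in the parental line. The differences of these 2 genes, 0.09 and -0.05, were smaller in size than those of 85.4% of the genes compared for MCM4 and 92.1% for MCM3.

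MCM7 (ENSG00000166508_at), which borders MCM3 and MCM4 in the ring, went the other way. Its level was 10.29 in the SA variant and 10.65 in the parental line, a difference of -0.36, and 21.3% of the genes compared had a lower one. MCM7 also hosts the microRNA genes MIR106B, MIR93 and MIR25, and AP4M1 overlaps it in the RefSeq gene table. The same table also lists overlapping genes for MCM2, PCNA, RRM2 and CCNE2, with INTS8 and NDUFAF6 among those of CCNE2. Whether probes of any of these rows, MCM7 included, touch such neighbours was not tested, since no source used here gives the probe positions.

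**Figure D1:**
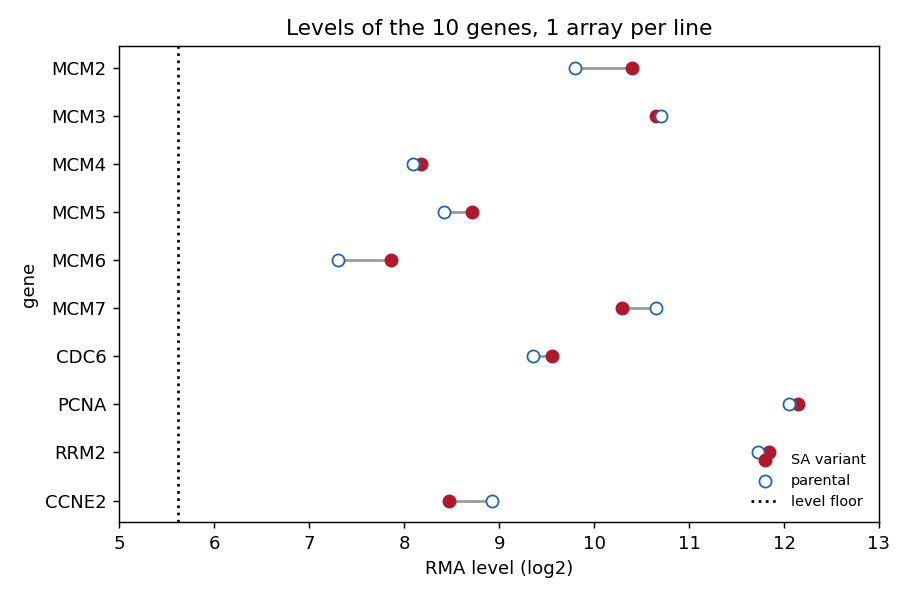
RMA level (log2, horizontal axis) of each of the 10 genes in the SA variant (filled points) and the parental line (open points), 1 array each, with the level floor of 5.62 as a dotted line. Both points of every gene lie above the floor, and the filled point lies to the left for MCM3, MCM7 and CCNE2 alone.

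CDC6 (ENSG00000094804_at), the ATPase that loads the ring together with the origin recognition complex, was at 9.56 in the SA variant and 9.36 in the parental line. Its difference was 0.2, or 1.149-fold. PCNA (ENSG00000132646_at), the clamp of the replication fork, had 12.15 in the SA variant and 12.05 in the parental line, a difference of 0.1. RRM2 (ENSG00000171848_at), the small subunit of ribonucleotide reductase that rises in S phase, had 11.84 in the SA variant and 11.73 in the parental line, a difference of 0.11. These 3 genes of different steps lay near each other and near the centre of all genes. The gene table lists 4 pseudogenes named after PCNA and 3 named after RRM2, and whether their RNA adds to these rows was not tested.

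CCNE2 (ENSG00000175305_at) encodes cyclin E2, which activates CDK2 at the passage from G1 to S phase. Its level was 8.47 in the SA variant and 8.93 in the parental line, a difference of -0.45. It had the lowest difference of the 10, and 16.6% of the genes compared had a lower one. CCNE2, the only cyclin in the list, lay on the other side of 0 from CDC6, PCNA and RRM2, as did MCM3 and MCM7 of the ring.

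The 10 genes were then read against all genes. Of the 9725 genes compared, 5.75% passed 2-fold upward in the SA variant and 4.17% downward, against 0 of the 10 in either direction. Among genes at or above the floor on both arrays, as all 10 were, the shares were lower, 4.13% upward and 3.26% downward. At 1.5-fold, 1 of the 10 was higher (MCM2, just past that size) and 0 were lower, where 15.8% of the genes compared were higher and 11.8% lower. A value above 0 was seen for 7 of the 10 and for 53.8% of the genes compared, and a value below 0 for 3 of the 10 and for 46.2%. With 10 genes, such counts move in steps of 1, and they single out nothing about the list.

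The median difference of the 10 genes was 0.104 (1.075-fold), beside 0.045 over all genes compared. For the 4 genes outside the ring the median was 0.104 but the mean was -0.011, since CCNE2 lay well below the other 3. The median size of the difference, whatever its sign, was 0.244 for the 10 and 0.345 over all genes compared. Between the quartiles of all genes lay 6 of the 10, with MCM2 and MCM6 above the upper quartile and MCM7 and CCNE2 below the lower one.

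**Figure D2:**
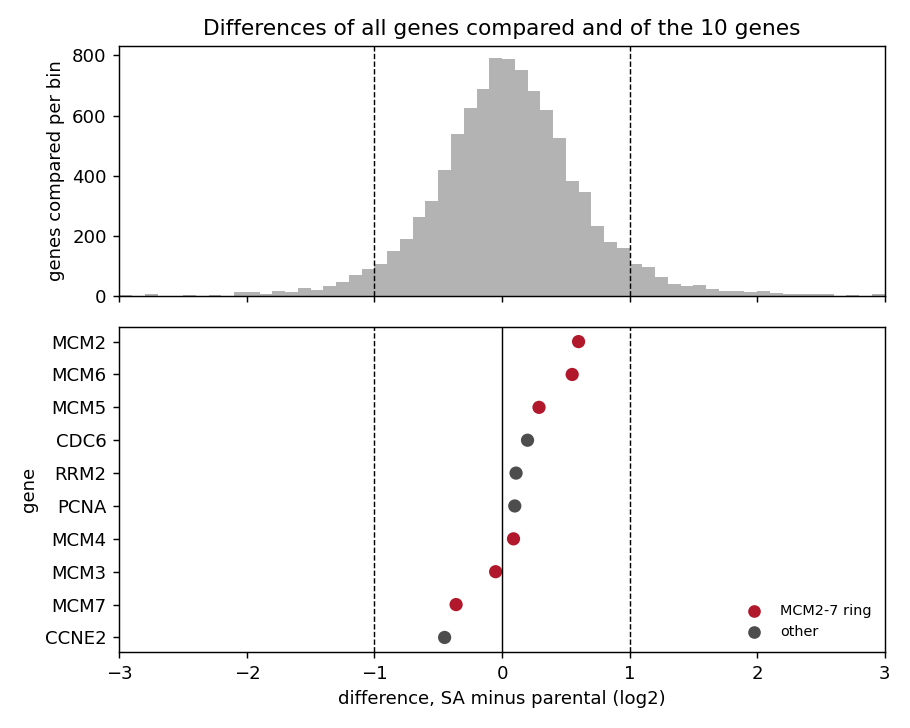
Upper panel, number of the 9725 genes compared per bin of 0.1 in the difference SA minus parental (log2), drawn from -3 to 3 with 19 genes below and 32 above that range. Lower panel, the differences of the 10 genes on the same axis, ring subunits in red; dashed lines mark 2-fold, and all 10 points lie between them, from -0.45 to 0.6.

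The 6 ring subunits, whose proteins assemble in equal number, did not share one difference. Their values spanned 0.95, from -0.36 for MCM7 to 0.6 for MCM2, with a median of 0.189 and an SD across the 6 genes of 0.37. The SD across all genes compared was 0.68. Of the 15 pairs of subunits, 5 had differences 1.5-fold or more apart and 0 had differences 2-fold or more apart. Over all pairs of the genes compared, 45.7% lay 1.5-fold or more apart and 22.6% lay 2-fold or more apart, and since the 15 pairs share 6 genes, their count singles out nothing about the ring. After quantile normalization the count at 1.5-fold was 4, without MCM6 and MCM3. The widest pair was MCM2 with MCM7 (0.95, or 1.938-fold), followed by MCM6 with MCM7 (0.91, or 1.878-fold). The other 3 were MCM2 with MCM3, MCM5 with MCM7 and MCM6 with MCM3. The closest pair was MCM2 with MCM6, at 1.032-fold. A shift common to a whole array cancels in such pairs, while error of single probes does not, and its size is unknown here with 1 array per line.

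The signs were the same under each of 3 other scalings of the arrays. Centring on the median of the genes compared, subtraction of a smooth trend on level, and quantile normalization of the pair of arrays left all 10 genes on their side of 0, and the largest move of a gene was 0.06. MCM2 was at 0.554, 0.551 and 0.575 under these 3 scalings, each below the 0.58 that 1.5-fold requires. CCNE2 was at -0.498, -0.512 and -0.497, and MCM7 at -0.401, -0.397 and -0.374. MCM4 came nearest to 0, at 0.025 after quantile normalization. RMA had already made the arrays alike, with medians of 5.64 for SA and 5.6 for parental, so the scalings had little left to change. They do not address error of single probes or of a single culture.

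**Figure D3:**
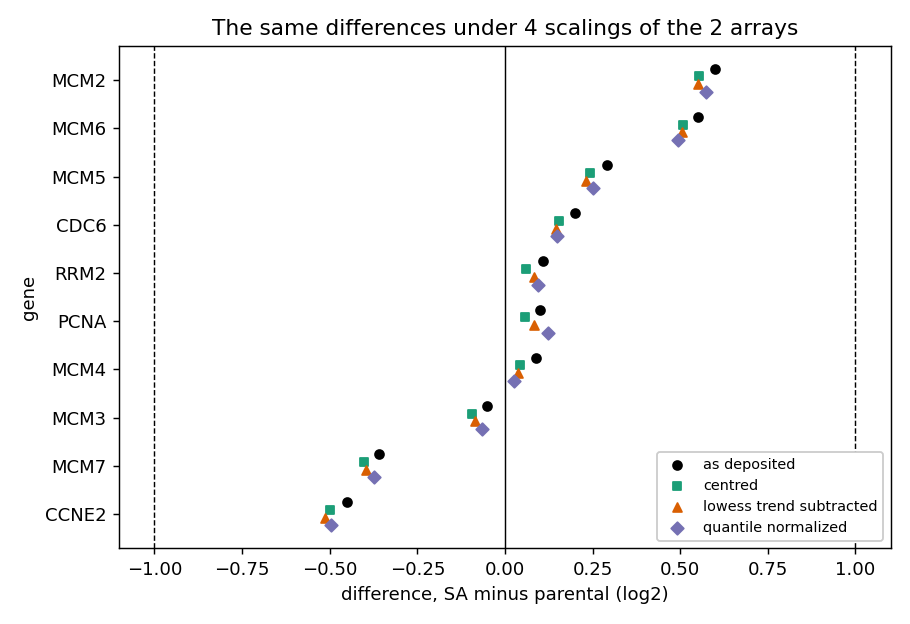
Difference SA minus parental (log2, horizontal axis) of each gene as deposited and under 3 scalings of the arrays, with dashed lines at 2-fold. The largest shift from a deposited value is 0.06, and the 3 genes below 0 stay below it.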

How the data were processed

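Total RNA of 1 SA and 1 parental culture was hybridised to 1 array each. The authors deposited log2 expression values made with RMA, per the submitters' processing notes; no source used here gives the array model, probe set definition, software version or log base, and base 2 was taken from the range of values, 2.5 to 14.5. RMA makes the probe distributions of the arrays equal and pulls differences of dim features towards 0. Each row is 1 Ensembl gene ID. The symbols of the 10 genes came with the list. RefSeq's gene table pairs no row with a symbol, so the planned counts of other replication genes and of cell line markers are not analysed here. Genes and lists were chosen with earlier results of these data known. The rule for named genes was all 10 members.

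Differences, ranks, quartiles and the 3 scalings (lowess span 0.4) were computed with Python 3.11.15, numpy 2.4.6, pandas 2.3.3 and statsmodels 0.14.6. The differences, unscaled and under the 3 scalings, were tested on simulated data with known shifts. Ranks, quartiles, ring pairs and motif searches were not tested in this way. Cell cycle phase lists are not used here. No test is possible with 1 array per group, and their number limits the precision of every value. The alternatives were other floors, size rules of 1.5-fold and 3-fold, the scalings, the mean, and each subgroup alone.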

Additional observations from a re-analysis of the deposited data

How the results depend on the processing

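No paired analysis was possible because each line had 1 array, and for the same reason no array could be left out. Under the 3 scalings, the differences of the 10 genes and their median kept their sign and moved by less than 0.1 on the log2 scale, 3 genes lay below 0, and the spread of the ring subunits was 0.95. Over all alternatives run for it, the median ran from 0.059 to 0.189, against 0.104. Ring pairs 1.5-fold or more apart numbered 5 after trend subtraction and 4 after quantile normalization. Centring takes the same value from every gene, so it cannot change this count or the spread. A size rule of 1.5-fold took the count of higher genes to 1, MCM2, where 2-fold and 3-fold gave 0; at 1.5-fold under each of the 3 scalings, an alternative added after the data were seen, it was 0. Without a level floor, the shares of all genes past 2-fold were 3.5% higher and 2.5% lower in the SA variant, with the dim genes added to the comparison. The count of other replication genes under its alternatives was not run, because no table here names those rows. All 10 genes lay above the floor on both arrays, but with 1 array per line the error of a difference is unknown.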
